A study of Drosophila melanogaster with 15 samples.

Results

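Transcript levels of whole adult Drosophila melanogaster males after a second passage through ethanol vapor were compared with those of unexposed males. The comparison took all arrays of both treatments, 5 for the 2nd exposure and 5 for the control, which are 10 of the 15 arrays of the series. The other 5 hold flies collected after a 1st exposure and share in the estimate of the spread. All flies were Canton-S B males, an isogenic strain, aged 3 to 5 days, and each array read the RNA of a pool of 30 males, drawn as 15 flies from each of 2 groups. Control flies had no ethanol. Flies of the 1st exposure were frozen when they eluted from the inebriometer, a column in which flies fall as ethanol vapor takes their postural control, at 3 to 5 min, and those of the 2nd exposure had been through that passage, had recovered on food for 2 h and were frozen when they eluted at 7 to 10 min in a second passage.

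Tolerance is the gain in resistance to ethanol that follows an earlier exposure. In flies it can build up within hours of a single sedating dose without a change in how fast ethanol is cleared, and it is known to need the octopamine system and the BK potassium channel encoded by slo. Ethanol is also a nutrient and a toxin to a fly that lives on fermenting fruit, where it is oxidized to acetate and enters lipid synthesis.

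The treatment limits what the comparison can show. Flies of the 2nd exposure were sampled after a further 2 h of recovery and a second passage, so ethanol, handling, time of day and the passage of time cannot be told apart. The flies of the 2nd exposure were also those of one span of elution times, and whole males were measured, so that fewer cells of a type and less RNA per cell cannot be told apart. A level is the Signal, the linear brightness that the authors computed for a probe set, a group of short oligonucleotides for 1 transcript. The median Signal was 136 to 139 on control arrays and 139 to 142 after the 2nd exposure, and between 22.3% and 26.2% of the probe sets of these arrays lay under a Signal of 20, where ratios are imprecise. The log2 difference is that of the mean log2 Signal, 2nd exposure minus control. It was called where its adjusted p, from limma with the Benjamini-Hochberg adjustment over all probe sets tested, was under 0.05. Values are listed by array in the order of replicates 1 to 5, ranges as lowest–highest, and p values measure the spread between these arrays.

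One array of the 2nd exposure stood apart from its label. Yp1, which encodes a yolk protein that adult females make in the fat body and ovary, was at a Signal of 8.8, 5.7, 38, 72.9 and 2521 on the 5 arrays of the 2nd exposure, and at 1.1 to 16.3 on control arrays. Yp2, a second yolk protein gene, was at 25, 23.9, 2.3, 94.8 and 1670. Vm34Ca, a protein of the vitelline membrane of the egg, was at 17.9, 6.7, 4.5, 72.9 and 997. In each of the 3 genes replicate 5 was far above the other 4 arrays, and replicate 4 was next. With a Signal of at least 100 and at least 4 times the highest of the other 14 arrays as the limits, 7 genes were particular to 2nd exposure replicate 5, and no gene met them on any of the other 14 arrays. The 7 were Yp1, Yp2, Yp3, Vm26Aa, Vm34Ca, the female-limited desaturase Fad2 (9.4, 7.6, 11.3, 29.5 and 218) and the germline thioredoxin dhd (42, 53.6, 58, 129 and 632). They were chosen after their values were seen, and none passed the test between treatments (adjusted p between 0.191 and 0.774). The summed Signal of 9 tested yolk and egg shell genes was 264 to 376 on control arrays, 269.5 to 491.5 on 2nd exposure replicates 1 to 4 and 7476 on replicate 5. The chorion genes Cp36 (11.6, 22.4, 35.3, 9.8 and 8.4) and Cp18 (33, 43.2, 73.4, 20.7 and 7.9) were not raised there.

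**Figure D1:**
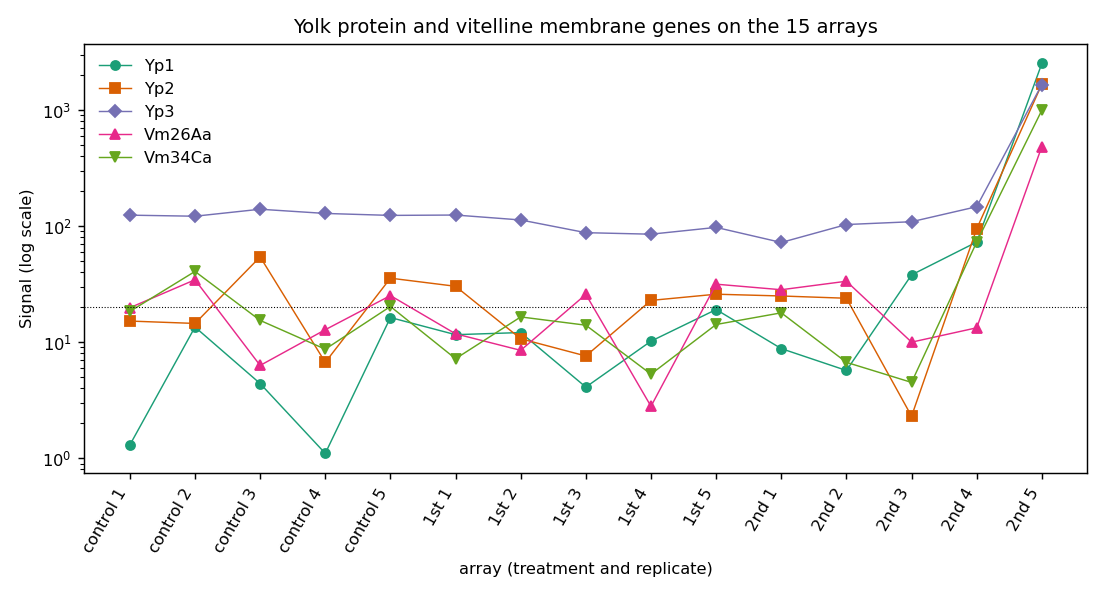
Signal (log scale) of 3 yolk protein genes and 2 vitelline membrane genes on each of the 15 arrays, with a dotted line at a Signal of 20. All 5 genes are highest on 2nd exposure replicate 5, where Yp1 reaches 2521.

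Genes of the male reproductive tract were present on all arrays. Acp36DE, a seminal fluid protein, was at 19050 on average in control flies against 17720 in the 2nd exposure, and Mst84Da, a sperm protein, at 10170 and 10330. None of 28 accessory gland genes and none of 42 testis genes passed the test. A log2 fold change above 0 was seen in 2 of the 28 (median -0.10) and in 18 of the 42 (median -0.04). The flight muscle genes differed between pools. fln, which encodes flightin of the indirect flight muscle, was at 4654, 9797, 2224, 4838 and 1858 without exposure and at 2114, 3478, 5752, 17887 and 12262 after the 2nd exposure. Act88F, the actin of the same muscle, was at 4646, 5815, 7577, 20241 and 15298 after the 2nd exposure. Both were highest on 2nd exposure replicates 4 and 5, and their control and 2nd exposure arrays overlap. The counts over all probe sets below are therefore also given without replicate 5, and without replicates 4 and 5 together. Counts per list are given without replicates 4 and 5 for some lists only, and without replicate 5 alone for none. A list count printed without such a value need not hold there. The part of these arrays in any single result beyond the values given was not tested.

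After the 2nd exposure 334 of 13809 probe sets tested rose (2.42%) and 167 fell (1.21%). By the brightest probe set of each gene, 197 of 10778 genes rose (1.83%) and 150 fell (1.39%). At an unadjusted p under 0.05 there were 2270 probe sets. Changes of more than 2-fold were seen in 61 probe sets that rose and 28 that fell, and the median log2 fold change of called probe sets was 0.62 upward and -0.482 downward. In 282 of the 334 and in 144 of the 167 the 5 arrays of the 2nd exposure all lay beyond the 5 control arrays. Among all probe sets tested 470 lay wholly above (3.4%) and 283 wholly below (2.05%). Without replicate 5 of the 2nd exposure 235 rose and 135 fell, of which 229 and 127 are among those called with it. Without replicates 4 and 5 together 128 rose and 126 fell. The methods drew the 3 pools of a replicate from the same 2 starting groups of flies, and with the replicate number as a block 283 rose and 137 fell. Rises made up 66.7% of the calls, 50.4% without replicates 4 and 5, and 51.4% (269 rises and 254 falls) when the array medians were equalised, a scaling that moved the median log2 fold change of all probe sets from near 0 to -0.04.

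Calls were spread over the whole range of levels. Of 3549 probe sets with a mean Signal of 20 to 100, 68 rose and 13 fell, with a median size of 1.03 on the log2 scale. Of 1473 at 2000 and more, 45 rose and 28 fell, with a median size of 0.436.

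**Figure D2:**
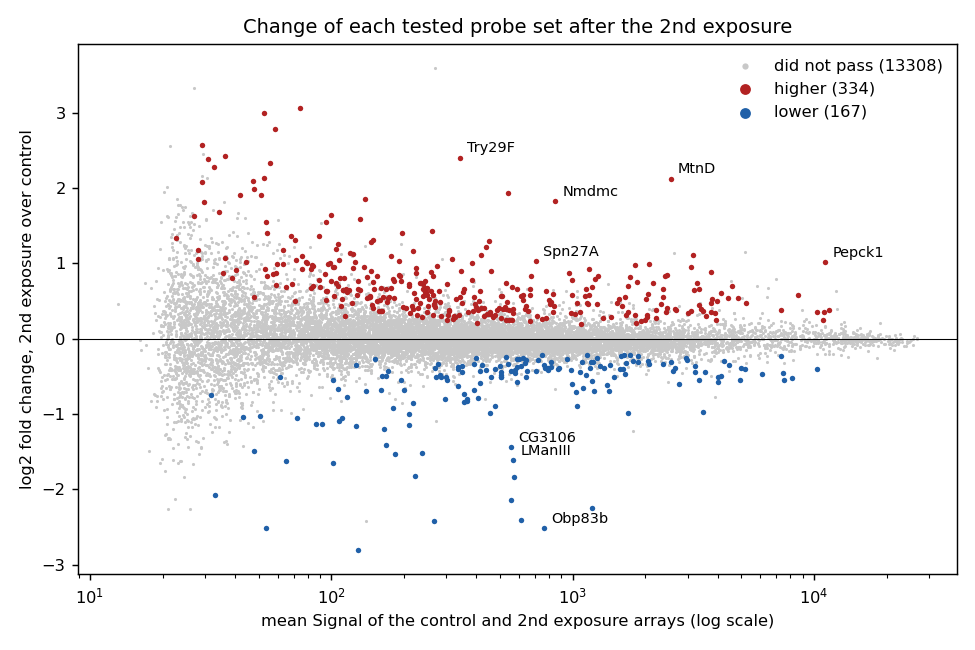
Log2 fold change after the 2nd exposure against the mean Signal of control and 2nd exposure arrays (log scale), 1 point per tested probe set. The 334 probe sets that rose are red, the 167 that fell are blue, and 8 genes named in the text are marked.

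The genes described first are the 12 rises and the 12 falls of largest size whose arrays did not overlap and whose higher mean was at least 100. Try29F, a trypsin-like serine protease, was at 100.4, 115, 138, 86.2 and 102 on the control arrays and at 485, 623, 719.5, 567 and 472 after the 2nd exposure. No array of the 2nd exposure came near the control range, and the level was 5.29-fold higher (log2 difference 2.40 with a standard error of 0.17, adjusted p = 6.38e-06). MtnD, a metallothionein, a small cysteine-rich protein that binds zinc and copper, was at 942, 977, 745, 972 and 1004 and then at 2859, 2975, 5491, 4229 and 5350. Its 2nd exposure arrays parted among themselves, with replicates 1 and 2 the lowest, yet the lowest of them was well above the highest control array (log2 difference 2.12 with a standard error of 0.18, adjusted p = 3.08e-05). Nmdmc, the mitochondrial methylenetetrahydrofolate dehydrogenase of the folate cycle, was at 349.6, 332, 321, 293 and 584 without exposure and at 1296, 939, 1043, 1702 and 1641 after the 2nd exposure. Control replicate 5 was above the other 4, and replicates 4 and 5 of the 2nd exposure were the highest of all (log2 difference 1.82 with a standard error of 0.23, adjusted p = 0.000873). These 3 genes also differed from the 1st exposure, by 2.21, 1.75 and 1.23 on the log2 scale (adjusted p = 3.71e-05, 0.000199 and 0.0193).

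Obp99d, of the odorant-binding protein family, was at 26.2, 96, 80.2, 71.5 and 46.1 and at 175, 220.3, 209.9, 242 and 210.1. The control values were dim and spread, and the groups did not overlap (log2 difference 1.85 with a standard error of 0.29, adjusted p = 0.00347). Pepck1, phosphoenolpyruvate carboxykinase, the enzyme that commits carbon to gluconeogenesis and glyceroneogenesis, was at 6140, 6426, 8100, 6393 and 10174 without exposure and at 14693, 12494, 14872, 16013 and 15929 after the 2nd exposure. The highest control array, replicate 5, stayed below the lowest of the 2nd exposure, replicate 2 (log2 difference 1.01 with a standard error of 0.14, adjusted p = 0.00145). Spn27A, a serpin that holds back the protease cascade of melanization, was at 464, 444, 384, 472 and 578 and at 901, 972, 944, 975 and 935. The 5 arrays of the 2nd exposure lay close together and above every control array (log2 difference 1.03 with a standard error of 0.09, adjusted p = 3.52e-05). Cyp309a1, a cytochrome P450, rose from 185–358 to 403–559 (log2 difference 1.0, adjusted p = 0.00286).

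CG10505, an ABC transporter, was at 76.1 to 111 without ethanol and 187 to 252 after the 2nd exposure (log2 difference 1.28, adjusted p = 0.00199). CG10516 was at 202–298 and 400.1–962 (log2 difference 1.30, adjusted p = 0.0111), CG33096 at 51.1–108 and 139–217 (log2 difference 1.13, adjusted p = 0.00582), and the calls of both ended without 2nd exposure replicates 4 and 5. For phu the ranges were 200.3–296 and 487–726 (log2 difference 1.22, adjusted p = 0.000329), and for CG14893 104–136 and 230.2–273 (log2 difference 1.03, adjusted p = 0.000352). None of these ranges overlap, as the choice of the leading genes required.

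The largest falls were led by genes of the antenna. Obp83b, an odorant-binding protein of the olfactory sensilla, was at 1390, 1281, 798, 1407 and 1558 on control arrays and at 224, 448, 136, 255 and 148 after the 2nd exposure. Replicate 2 was the highest of the 2nd exposure and lay below every control array (log2 difference -2.51 with a standard error of 0.29, adjusted p = 0.000352). Of 11 antennal genes tested, 7 fell (63.6%, against 1.39% of all genes) and none rose, with a median log2 fold change of -1.53, against a median near 0 over all probe sets tested. The list was drawn up with earlier results of these arrays known, so this share is a description and no evidence of its own. Summed over the list, the 5 control pools held a Signal of 5558 to 7190 and those of the 2nd exposure 3279 to 4571, and the 1st exposure had given 3552 to 4506. Orco, the coreceptor of odorant receptors and so a mark of the olfactory neurons, was at 96.6, 89.6, 86.2, 105 and 105 and at 50.2, 60.7, 35.1, 60.8 and 32.6 (log2 difference -1.05 with a standard error of 0.21, adjusted p = 0.0128), a fall on all 5 arrays. It was the 1 of 43 odorant, gustatory and ionotropic receptors tested that passed (2.33%, against 1.39% of all genes). The median log2 fold change of the 43 was 0.08, and 23 of them had a value above 0. The arrays held 168 such receptors, and those not tested averaged under the Signal minimum of the test. The 43 together held a Signal of 1664 to 1918 on control arrays, so they were dim on average. These values therefore cannot tell whether other receptors fell with Orco. Os-C, Obp19a, a10, Obp69a, lush and Obp28a, all named for or known from the antenna, fell with log2 fold changes between -2.42 for Obp19a and -1.52 for Obp28a.

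Replicate 2 was also the highest array of the 2nd exposure for Obp19a (79.3, 199.8, 55, 74.8 and 49.5), a10 (234, 343, 109, 262 and 136) and Obp28a (103, 171, 92.5, 156 and 91.1). Of 38 odorant-binding and related proteins tested, 9 fell (23.7%, against 1.39% of all genes) and Obp99d rose (2.63%, against 1.83%). With the replicate block, and also without 2nd exposure replicates 4 and 5, 7 fell, Obp84a and Obp22a no longer passing (adjusted p = 0.0601 and 0.0611 with the block). a10, of the chemosensory protein family, was counted with them, and the other falls included Obp19d, which went from 6300–8895 to 4569–5431 (log2 difference -0.47, adjusted p = 0.00884). The test between the exposures did not pass for the antennal genes looked at. The difference of the 2nd from the 1st exposure was -0.42 on the log2 scale for Obp83b (adjusted p = 0.532), -0.05 for lush (adjusted p = 0.917) and 0.21 for Orco (adjusted p = 0.677).

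Jhedup, a relative of juvenile hormone esterase, was at 270.4, 241, 158, 259 and 287 and at 65.9, 119, 66.3, 129 and 85.4 (log2 difference -1.41 with a standard error of 0.24, adjusted p = 0.00553), with no overlap. The neighboring Jhe, juvenile hormone esterase, was chosen after its values were seen and went from 116–210.3 to 51.4–74.1 (log2 difference -1.09, adjusted p = 0.00222). LManIII, a lysosomal alpha-mannosidase, which trims mannose from glycoproteins, was at 1040, 1065, 564, 1018 and 607 and at 208, 201, 298, 324 and 359.5 (log2 difference -1.61 with a standard error of 0.26, adjusted p = 0.00347). Its control arrays fell into a higher set of 3 and a lower set of 2, replicates 3 and 5, and all 5 were above the 2nd exposure. Acsx2, of the acyl-CoA synthetase family, was at 116–198 and at 32.2–71.7 (log2 difference -1.64, adjusted p = 0.0346), and this call ended in 12 of 29 alternative settings. CG3106 was at 931, 758, 830.1, 896 and 668 and at 256, 295, 323, 314 and 309, the fall with the smallest p of all (log2 difference -1.44 with a standard error of 0.10, adjusted p = 6.38e-06). The highest array of the 2nd exposure was below every control array, and the level was also lower than after the 1st exposure (difference -1.10, adjusted p = 8.94e-05). CG11741 was at 173–279 and 70.2–133 (log2 difference -1.20, adjusted p = 0.00389).

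**Figure D3:**
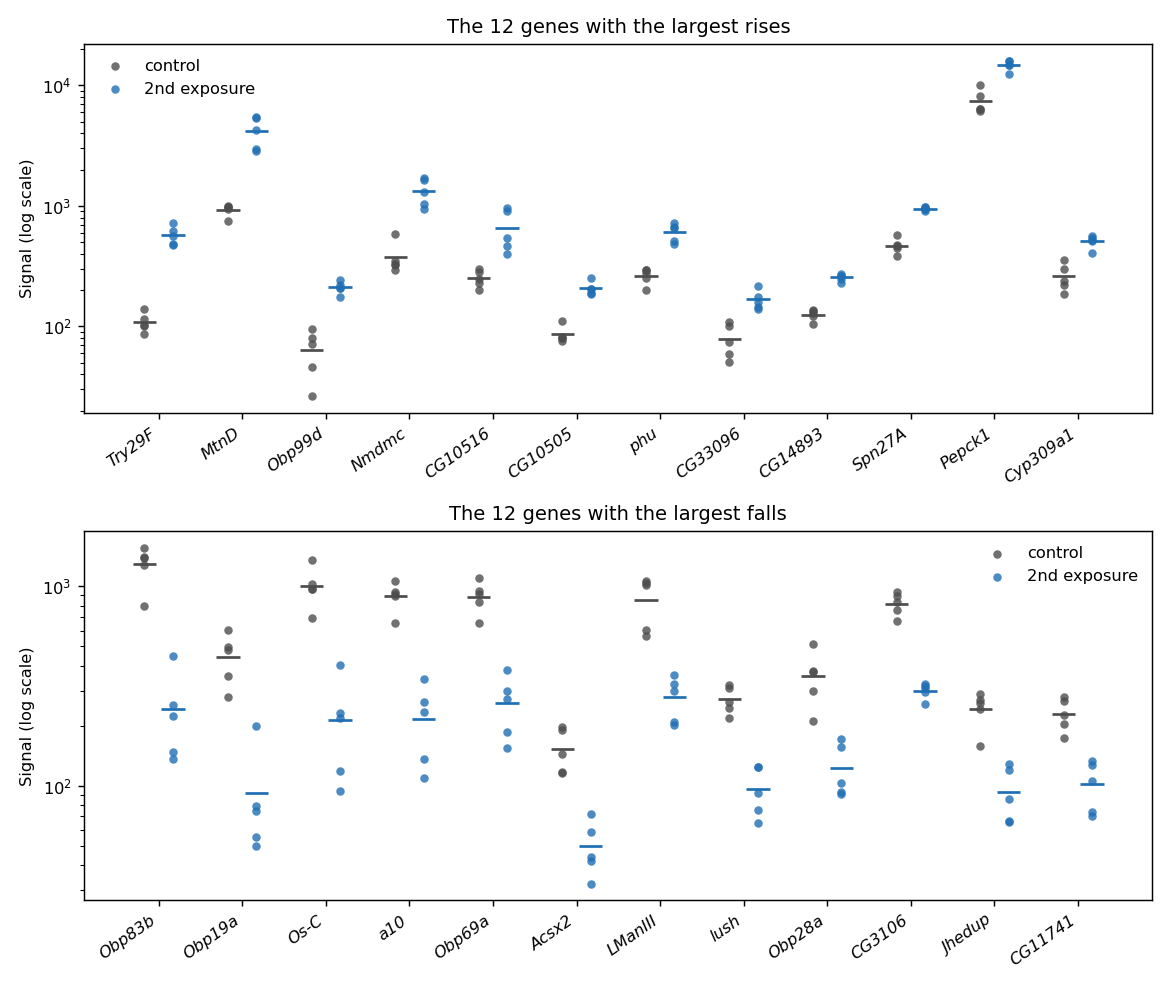
Signal (log scale) of the 12 genes with the largest rises and the 12 with the largest falls, 1 point per array and a bar at the mean of 5 arrays. Control and 2nd exposure points do not overlap in any of the 24 genes, as their choice required.

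Lists of genes by function, 58 in all, held 1478 tested genes, of which 55 rose and 40 fell, and 37 lists had a called member. A gene with no probe set paired with it alone was not tested, so a list need not cover its whole pathway or family. The shares of all genes, 1.83% higher and 1.39% lower, are the background of each count that follows. The lists were drawn up with earlier results of these arrays known, so a count is a description and no evidence of its own. This holds too for the counts of antennal genes, receptors and odorant-binding proteins given above.

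Of 26 trypsins and chymotrypsin-like proteases of the gut, 2 rose and 4 fell, and the median log2 fold change was -0.17. zetaTry, a trypsin, was at 1245, 1095, 1269, 1203 and 1174 and at 774, 803, 809.5, 778 and 789. The 2nd exposure arrays lay close together and below each control array (log2 difference -0.60 with a standard error of 0.05, adjusted p = 5.93e-05). Its neighbor etaTry fell from 517–588 to 394–494 (log2 difference -0.36, adjusted p = 0.00608), lambdaTry from a mean of 3707 to 2714 (log2 difference -0.45, adjusted p = 0.0132), and Jon99Fi from 7544–9269 to 5292–6975 (log2 difference -0.46, adjusted p = 0.0109). Ser8 rose beside Try29F, from a mean of 1066 to 1470 (log2 difference 0.46, adjusted p = 0.0188). Its call ended with the replicate block (adjusted p = 0.0566), without 2nd exposure replicate 3 and without replicates 4 and 5, where 1 of 26 rose. With the block lambdaTry did not pass either (adjusted p = 0.0527). 2 other trypsins did not pass. alphaTry was at 25610 and 26430 (adjusted p = 0.86) and betaTry at 22660 and 21780 (adjusted p = 0.761). zetaTry was also lower than after the 1st exposure, by a log2 difference of -0.45 (adjusted p = 0.0008).

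Peritrophin-15a and Peritrophin-15b, chitin-binding proteins of the membrane that lines the midgut, were the 2 of 18 peritrophic and chitin genes that fell. Peritrophin-15b was at 442, 375, 362, 372 and 334 and at 216, 187, 239.9, 219 and 224 (log2 difference -0.79 with a standard error of 0.09, adjusted p = 0.000329), with no overlap. Peritrophin-15a went from 3247–4292 to 2517–3005 (log2 difference -0.55, adjusted p = 0.00596). Among 18 maltases, amylases and mannosidases LManV fell with LManIII, from 3619–5053 to 1639–2992 (log2 difference -0.97, adjusted p = 0.0179). tobi, an alpha-glucosidase named as a target of brain insulin, rose from 1692–3131 to 3432–4781 (log2 difference 0.73, adjusted p = 0.0107), a call that ended without 2nd exposure replicates 4 and 5. Probe sets of such close relatives may read each other's transcripts, which was not tested.

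Among 73 cytochrome P450s 4 rose (5.48%) and 3 fell (4.11%), against 1.83% and 1.39% of all genes, and 2 rose and 2 fell without 2nd exposure replicates 4 and 5. Cyp6a8, a P450 that xenobiotics induce, was at 1273, 1051, 1408, 1274 and 1287 and at 2526, 2294, 1818, 2262 and 2181. Every array of the 2nd exposure lay above every control array, with a log2 difference of 0.81 and a standard error of 0.09 (adjusted p = 0.000329). The level was also higher than after the 1st exposure (log2 difference 0.92, adjusted p = 0.00019). Cyp6a2 rose from 243–302 to 319–381 (log2 difference 0.37, adjusted p = 0.0136) and Cyp4ac1 fell from 587–763 to 460–509 (log2 difference -0.46, adjusted p = 0.0171), and both calls ended without 2nd exposure replicates 4 and 5. Of 33 glutathione S-transferases 4 rose and 2 fell, and 3 rose and 1 fell with the replicate block. GstE4 was at 410.4, 369.5, 158, 348 and 445 and at 61.8, 118, 78.3, 162 and 71.5. The 2nd exposure replicate 4 lay above the lowest control array (log2 difference -1.83 with a standard error of 0.31, adjusted p = 0.00464). GstD1 rose from 9158–10397 to 11458–12502, 1.19-fold (log2 difference 0.25, adjusted p = 0.0148), and GstD5 and GstE7 rose by 0.64 and 0.46 on the log2 scale (adjusted p = 0.0108 and 0.0157). Without 2nd exposure replicates 4 and 5 none of the 4 rises of glutathione S-transferases passed. Of 31 UDP-glycosyltransferases, Ugt37A2 (116–278 to 308–422, adjusted p = 0.0192) and Ugt35C1 (1021–1444 to 1539–1991, adjusted p = 0.0299) rose and Ugt35B1 (2293–2896 to 1843–2233, adjusted p = 0.0197) fell. All 3 calls ended without those replicates, and that of Ugt35C1 also with the replicate block (adjusted p = 0.064).

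None of 7 tested genes of ethanol and aldehyde oxidation passed, among them the sorbitol dehydrogenase Sodh2 at 239.6 and 189 (adjusted p = 0.0521) and the acetyl-CoA synthetase AcCoAS at 6392 and 6058 (adjusted p = 0.659). Adh, Adhr and Aldh had no probe set of their own and are not among the 7, so their levels were not tested. 2 genes outside the rule for named genes, chosen after their values were seen, bear names of this chemistry. AOX1, an aldehyde oxidase, was at 2804–3241 and 3606–4152 (log2 difference 0.37, adjusted p = 0.00215). Drat, whose protein has a domain like that of alcohol dehydrogenase, was at 3239–3648 and 4164–4424 (log2 difference 0.34, adjusted p = 0.00252).

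Of 22 genes of folate and one-carbon metabolism tested, 4 rose (18.2%, against 1.83% of all genes) and none fell, the median log2 fold change being 0.10. Shmt, serine hydroxymethyltransferase, which passes the carbon of serine to folate, was at 1525, 1726, 1484, 1567 and 1842 and at 2226, 2281, 2557, 2538 and 2721 (log2 difference 0.60 with a standard error of 0.10, adjusted p = 0.00537), with no overlap. Prat2 makes the first committed step of purine synthesis and was at 1691, 1986, 1740, 1662 and 1699 and at 3028, 2538, 2812, 3705 and 3858 (log2 difference 0.85 with a standard error of 0.15, adjusted p = 0.00596). Control replicate 2 was the highest control array and lay below every array of the 2nd exposure. Paics, a later enzyme of purine synthesis, rose from 2338–2836 to 3281–4595 (log2 difference 0.64, adjusted p = 0.0234), and its call ended in 8 of 29 alternatives. The glycine N-methyltransferase Gnmt had means of 3330 and 5712 and did not pass (adjusted p = 0.0532). Without 2nd exposure replicates 4 and 5, 1 of the 4 rises, that of Nmdmc, passed. aay, phosphoserine phosphatase, which makes serine, was chosen after its values were seen. It was at 1817, 2205, 2386, 1764 and 2454 and at 4423, 3493, 3709, 4176 and 4615, the lowest of these above the highest control array (log2 difference 0.95 with a standard error of 0.12, adjusted p = 0.000887).

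Pepck1 was the one of 16 genes of the pyruvate node, gluconeogenesis and glycogen that passed. None of 12 glycolytic enzymes, none of 13 of the citric acid cycle and none of 69 of oxidative phosphorylation did, with medians of 0.10, 0.06 and 0.04. Gapdh2, PyK and Ldh of glycolysis had no probe set of their own and were not tested. The same holds for kdn, SdhA, Fum1 and Mdh2 of the citric acid cycle. Pyruvate carboxylase, PCB, was at 6910 and 6455 by its brightest probe set (adjusted p = 0.528), whereas a dimmer one rose from 680 to 1248 (adjusted p = 0.00499). Gbs-70E, a subunit that brings protein phosphatase 1 to glycogen, was chosen after its values were seen. It was at 3924, 3601, 3116, 3558 and 3306 and at 5438, 5113, 5973, 5912 and 5950, again with no overlap (log2 difference 0.70 with a standard error of 0.08, adjusted p = 0.000329).

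Of 22 genes of fatty acid synthesis and activation 4 rose and 1 fell. Men, malic enzyme, a source of NADPH for synthesis, was at 6138, 6391, 6354, 6421 and 6388 and at 7704, 7178, 7962, 9495 and 9074. The 5 control arrays lay within a narrow range, and the 2nd exposure arrays lay above them and farther apart (log2 difference 0.38 with a standard error of 0.07, adjusted p = 0.0122), a call that ended without 2nd exposure replicates 4 and 5. FASN2, a fatty acid synthase, rose from 2442–2949 to 3353–3633 (log2 difference 0.36, adjusted p = 0.00887), and its relative FASN3 from a mean of 1358 to 1852 (log2 difference 0.44, adjusted p = 0.0402), the latter call ending in 18 of 29 alternatives. Ppat-Dpck, an enzyme of coenzyme A synthesis, rose from 412–526 to 534–620.2 (log2 difference 0.28, adjusted p = 0.0324), a call that ended in 14 of 29. With the replicate block FASN3 and Ppat-Dpck did not pass (adjusted p = 0.0576 and 0.0753). bgm, an acyl-CoA synthetase of very long chains, fell from 1542–2010 to 1071–1377 (log2 difference -0.51, adjusted p = 0.0137). Without 2nd exposure replicates 4 and 5, and also with array medians equalised, 2 genes of this list rose and 2 fell.

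Of 31 genes of lipid storage, lipolysis and transport 1 rose and 4 fell. apolpp, the precursor of the lipoproteins that carry fat in the blood, was at 10834, 11789, 11315, 11488 and 13219 and at 8067, 8064, 9018, 10382 and 9064, with replicate 4 the highest of the 2nd exposure and still below all control arrays (log2 difference -0.40 with a standard error of 0.08, adjusted p = 0.0135). Acbp5, an acyl-CoA binding protein, fell from 8468–10316 to 6417–6929 (log2 difference -0.52, adjusted p = 0.000329), Acbp3 from a mean of 5656 to 4331 (log2 difference -0.38, adjusted p = 0.0222, lost in 7 of 29 alternatives), and Hmgs, which makes the precursor of isoprenoids, from 2188–2412 to 1706–1987 (log2 difference -0.33, adjusted p = 0.00383). Lsd-1, the perilipin that coats lipid droplets, rose from 1400–2007 to 2300–3932 (log2 difference 0.83, adjusted p = 0.0188), and its call ended without 2nd exposure replicate 4 and without replicate 5. None of 14 genes of fatty acid oxidation passed, and the lipase bmm was at 1488 and 1570 (adjusted p = 0.855).

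In insulin and TOR signalling 2 of 23 genes changed. sug, sugarbabe, a zinc finger factor that responds to dietary sugar and acts on fat body metabolism, was at 867, 942, 1042, 917 and 820.3 and at 1347, 1645, 1910, 1653 and 1652 (log2 difference 0.83 with a standard error of 0.10, adjusted p = 0.000441). ImpL2, a secreted protein that binds insulin-like peptides and blunts their action, was at 3656, 3558, 3758, 3593 and 3582 and at 2860, 2813, 2928, 2709 and 2840 (log2 difference -0.36 with a standard error of 0.05, adjusted p = 0.00117). For sug every array of the 2nd exposure was higher than every control array and for ImpL2 every one was lower. ImpL2 was also below the 1st exposure (log2 difference -0.45, adjusted p = 0.000251), and sug above it (log2 difference 0.55, adjusted p = 0.0157). foxo was at 466 and 435 (adjusted p = 0.792) and InR at 375 and 363 (adjusted p = 0.944).

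**Figure D4:**
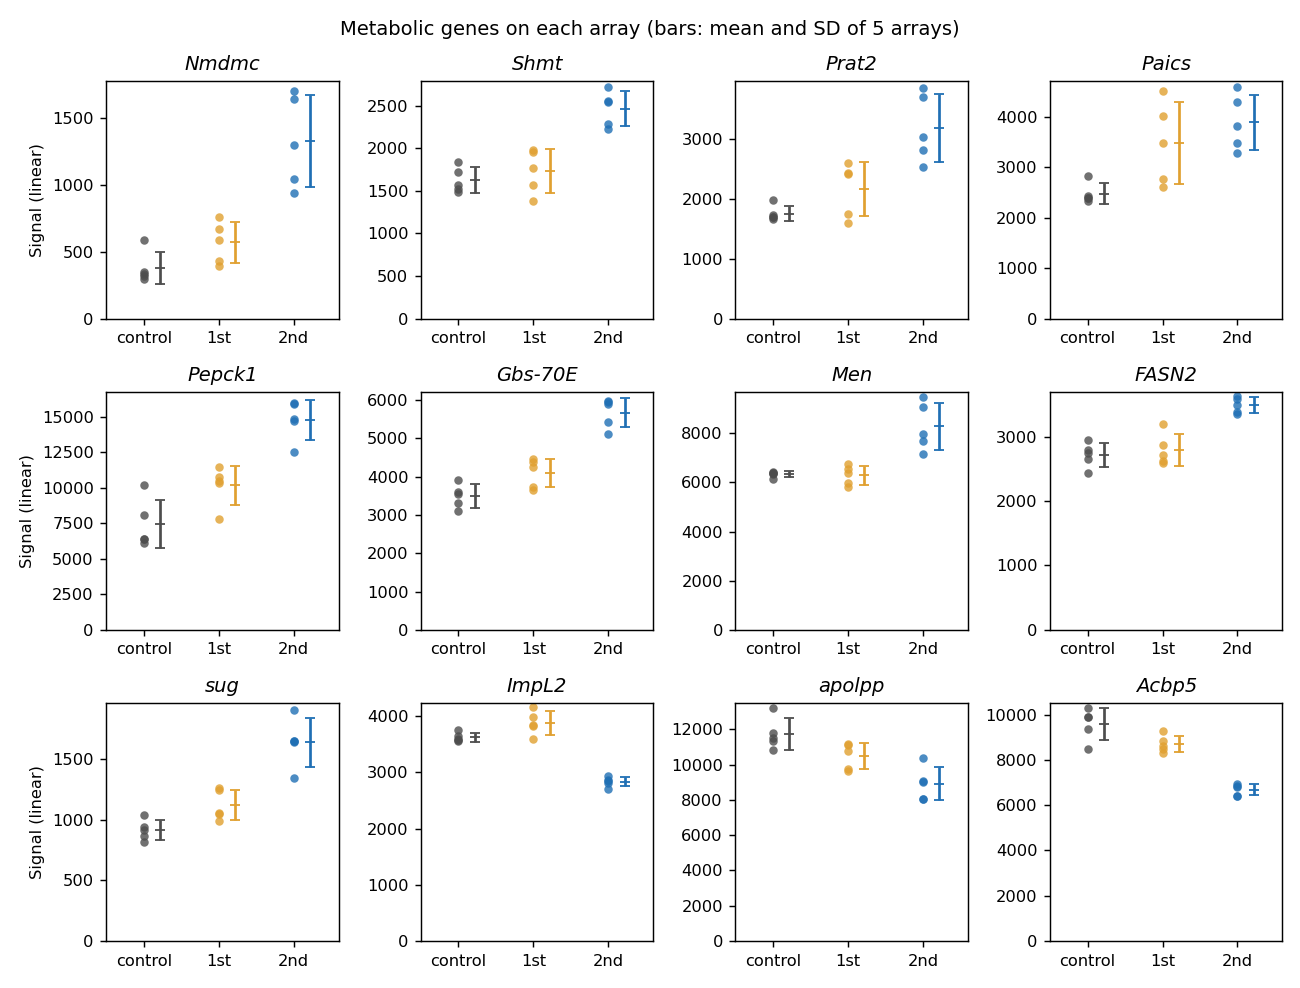
Signal (linear scale from 0) of 12 genes of folate, carbohydrate, lipid and insulin metabolism, 1 point per array, with the mean and SD of 5 arrays beside it, for control, 1st exposure and 2nd exposure. The 2nd exposure arrays lie beyond all control arrays in each of the 12, upward in 9 and downward in ImpL2, apolpp and Acbp5. The 12 were picked from genes that passed the test, and list members that did not pass are not drawn.

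Clock genes are given because the groups differ in time of day. Of 19 tested 3 rose and none fell. per, which encodes a repressor of the central loop, was at 145, 150.2, 145, 118 and 144 and at 210.3, 193, 215, 198 and 199 (log2 difference 0.54 with a standard error of 0.12, adjusted p = 0.0207). The highest control array lay below the lowest of the 2nd exposure. After the 1st exposure the mean of per was 93.8, lower than in control flies (log2 difference -0.60, adjusted p = 0.0494). The 2nd exposure lay above the 1st (log2 difference 1.135, adjusted p = 0.000199). vri rose from 680.3–778 to 799–1054 (log2 difference 0.35, adjusted p = 0.0247) and Pdp1 from 1364–1582 to 1556–2031 (log2 difference 0.31, adjusted p = 0.0336), whose proteins repress and activate Clk. The calls of vri and Pdp1 ended in 8 and 13 of 29 alternatives, the replicate block among them (adjusted p = 0.0554 and 0.0632), and that of per without control replicate 4, without 2nd exposure replicate 3 and without replicates 4 and 5. tim, the partner of per, did not pass at the probe set of its highest Signal (1330 and 1501, adjusted p = 0.503), whereas its other probe set rose from 154 to 296 (adjusted p = 0.00252). None of the others passed: Clk (742 and 680.1), cry (1345 and 1233), cwo (1400 and 1440) and cyc (267 and 282), with adjusted p between 0.492 and 0.851. Against the 1st exposure Pdp1 and the brightest probe set of tim were also higher (adjusted p = 0.0318 and 0.0238). That test did not pass for vri, Clk, cry, cwo and cyc. The part of time of day in these and the other rises was not tested.

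Of 32 genes of histone modification 2 rose and 1 fell. HDAC1, a class I histone deacetylase, was at 179, 182, 143, 148 and 146 and at 291, 253, 270.1, 319 and 325 (log2 difference 0.87 with a standard error of 0.09, adjusted p = 0.000197). CoRest, a corepressor that binds it, was at 447, 378, 392, 390.5 and 427 and at 599.5, 552, 627, 607 and 618 (log2 difference 0.56 with a standard error of 0.06, adjusted p = 0.000329), and 1 of its 3 tested probe sets passed. Both genes were higher on every array of the 2nd exposure than on any control array, and also higher than after the 1st exposure, by 0.78 on the log2 scale (adjusted p = 0.000635) and 0.65 (adjusted p = 0.00019). Sirt1, a deacetylase that uses NAD, was at 815, 913, 804, 854 and 669 and at 613, 689, 579, 640.4 and 500.3. Control replicate 5 lay within the range of the 2nd exposure (log2 difference -0.42 with a standard error of 0.09, adjusted p = 0.0192), and the call ended without 2nd exposure replicates 4 and 5.

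Of 40 zinc finger and homeobox transcription factors 6 rose (15%, against 1.83% of all genes) and none fell. cbt, cabut, which dietary sugar induces, was at 4227, 3994, 4025, 4011 and 3582 and at 5522, 5919, 5352, 6214 and 5757 (log2 difference 0.54 with a standard error of 0.06, adjusted p = 0.000197). It had reached 5382 to 5693 after the 1st exposure, and the test between the exposures did not pass (difference 0.06, adjusted p = 0.671). elB rose from 211–239 to 277–358 (log2 difference 0.44, adjusted p = 0.00887, at 1 of its 3 tested probe sets) and Dr from 125–201 to 232–285 (log2 difference 0.70, adjusted p = 0.0135). hb rose from a mean of 86.5 to 136 (log2 difference 0.64, adjusted p = 0.0157), salm from 182 to 334 (log2 difference 0.89, adjusted p = 0.0215) and Scr, dim throughout, from 39.3 to 56.8 (log2 difference 0.55, adjusted p = 0.0412). Without 2nd exposure replicates 4 and 5, 2 of the 6 passed, cbt and elB, and the call of Scr ended in 17 of 28 alternatives. The repressor hry, hairy, was chosen after its values were seen and was at 2764–3281 and 3980–4709 (log2 difference 0.47, adjusted p = 0.00145).

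None of 20 potassium channel genes passed, slo being at 376 and 378 (adjusted p = 0.991), and none of 23 of GABA and glutamate signalling. Of 22 genes known from earlier work on ethanol behavior, per rose and lush and Sirt1 fell. hang was at 478 and 456 (adjusted p = 0.677), and Tbh, which makes octopamine, at 61.3 and 74.3 (adjusted p = 0.424). Vmat, the carrier that loads monoamines into vesicles, was the 1 of 22 genes of biogenic amine synthesis and transport that passed. It was at 355, 514, 479, 381 and 564 and at 257, 257, 238, 252 and 258. The 2nd exposure arrays lay within a narrow range, below all of the more scattered control arrays (log2 difference -0.84 with a standard error of 0.16, adjusted p = 0.0108), while 1 of the gene's 4 tested probe sets passed and the call ended without 2nd exposure replicates 4 and 5. Proc, the precursor of proctolin and the 1 of 27 neuropeptides tested that passed, rose from 160.4–195 to 218–262 (log2 difference 0.41, adjusted p = 0.00884). laza, a lipid phosphatase of photoreceptors and the 1 of 22 phototransduction genes that passed, fell from 426–518 to 332–367 (log2 difference -0.42, adjusted p = 0.00439). ninaE and norpA, among others, had no probe set of their own and are not among the 22.

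Among transporters mnd, an amino acid carrier that feeds growth signalling, was the 1 of 10 amino acid transporters tested that passed. It was at 496, 526, 497, 494 and 468 and at 352, 317, 356, 319.6 and 315 (log2 difference -0.58 with a standard error of 0.05, adjusted p = 7.10e-05). It was lower on all arrays, and lower than after the 1st exposure too (difference -0.46, adjusted p = 0.000635). Of 37 carriers of sugars and organic ions 3 rose and 2 fell. Picot, a phosphate cotransporter, rose from 1734–2042 to 2348–2650 (log2 difference 0.39, adjusted p = 0.00464), and MRP, an ABC transporter of conjugated compounds, from 1698–2161 to 2418–3112 (log2 difference 0.46, adjusted p = 0.00948). Without 2nd exposure replicates 4 and 5 MRP did not pass and 1 of the 3 rises did. MFS14, of the major facilitator family, rose from 1526–1741 to 1755–2281 (log2 difference 0.32, adjusted p = 0.0256) and the organic anion transporter Oatp58Db fell from 628–757 to 466–573 (log2 difference -0.38, adjusted p = 0.0213), calls that ended in 10 and 5 of 29 alternatives, the replicate block among them (adjusted p = 0.0588 and 0.0607). MFS3, the other fall, was lost in 17 of 29, the replicate block among them (adjusted p = 0.103). Of 19 mitochondrial carriers Tpc2, for thiamine pyrophosphate, rose from 115–215 to 223–296 (log2 difference 0.73, adjusted p = 0.0121) and Slc25A46a from 434–499.9 to 598–646 (log2 difference 0.38, adjusted p = 0.00118). Of 24 actin regulators Arpc3B, a subunit of the Arp2/3 complex that branches filaments, rose from 133–203 to 253–342 (log2 difference 0.73, adjusted p = 0.00389) and cpb, of the protein that caps them, from 385–469 to 494–590.4 (log2 difference 0.39, adjusted p = 0.00755).

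Of 13 genes of metal binding and transport MtnC rose beside MtnD. It was at 2490, 3298, 2759, 2332 and 2232 and at 3866, 3996, 6475, 4541 and 5493 (log2 difference 0.88 with a standard error of 0.14, adjusted p = 0.00312), with replicates 3 and 5 of the 2nd exposure the highest. MtnA was at 26410 and 25050 (adjusted p = 0.679) and MtnB at 81 and 134 (adjusted p = 0.107). Of 32 heat shock proteins and cochaperones l(2)efl, a small heat shock protein, rose from 8936–11763 to 11852–12751 (log2 difference 0.35, adjusted p = 0.0133), control replicate 5 being the highest control array, and the call ended when only control and 2nd exposure arrays were fitted. None of 2 Turandot genes and none of 18 redox defence genes passed.

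Of 60 genes of immune recognition and signalling 3 rose: Spn27A, the peptidoglycan recognition protein PGRP-LA (308–352 to 386–496, log2 difference 0.37, adjusted p = 0.0133) and BomT3, of the Bomanin family of secreted peptides (1253–2096 to 1706–3418, log2 difference 0.74, adjusted p = 0.0239). Of 12 antimicrobial peptides Drsl5 fell from 1483–2140 to 1150–1509 (log2 difference -0.40, adjusted p = 0.0332). AttA, DptA and Dro, among others, had no probe set of their own and are not among the 12. The BomT3 and Drsl5 groups overlap, and their calls ended in 10 and 13 of 29 alternatives. That of PGRP-LA ended without 2nd exposure replicates 4 and 5, where 1 of the 60 rose. TSG101, of the complex that sorts ubiquitinated proteins into endosomes, was at 1731, 1779, 1950, 1730 and 2416 and at 3121, 2777, 2598, 2565 and 2956 (log2 difference 0.55 with a standard error of 0.09, adjusted p = 0.00423), with no overlap and a 1st exposure mean of 2740. Ubr1, a ubiquitin ligase that reads the N termini of proteins, rose from 192–257 to 293–328 (log2 difference 0.46, adjusted p = 0.0234), a call that ended in 7 of 29 alternatives. TSG101 and Ubr1 were the 2 of 27 genes of ubiquitin transfer and endosomal sorting that passed, and without 2nd exposure replicates 4 and 5 only 1 rose. Of 17 genes of endoplasmic reticulum stress Fkbp14, a prolyl isomerase, fell from 3047–3542 to 2609–2806 (log2 difference -0.26, adjusted p = 0.0118), a call that ended without 2nd exposure replicates 4 and 5 and with only control and 2nd exposure arrays fitted. In the pigment list mal, which activates molybdenum enzymes, rose from 293–380.4 to 396–514 (log2 difference 0.45, adjusted p = 0.0191), and ry, xanthine dehydrogenase, one of those enzymes, fell from 269–324 to 203–272 (log2 difference -0.39, adjusted p = 0.0201). The call of mal ended in 5 of 29 alternatives, the replicate block among them (adjusted p = 0.0574), and that of ry, whose groups overlap, in 3. Of 58 cuticle proteins Cpr67Fb rose from 490.5–969 to 1136–1895 (log2 difference 0.92, adjusted p = 0.00897).

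**Figure D5:**
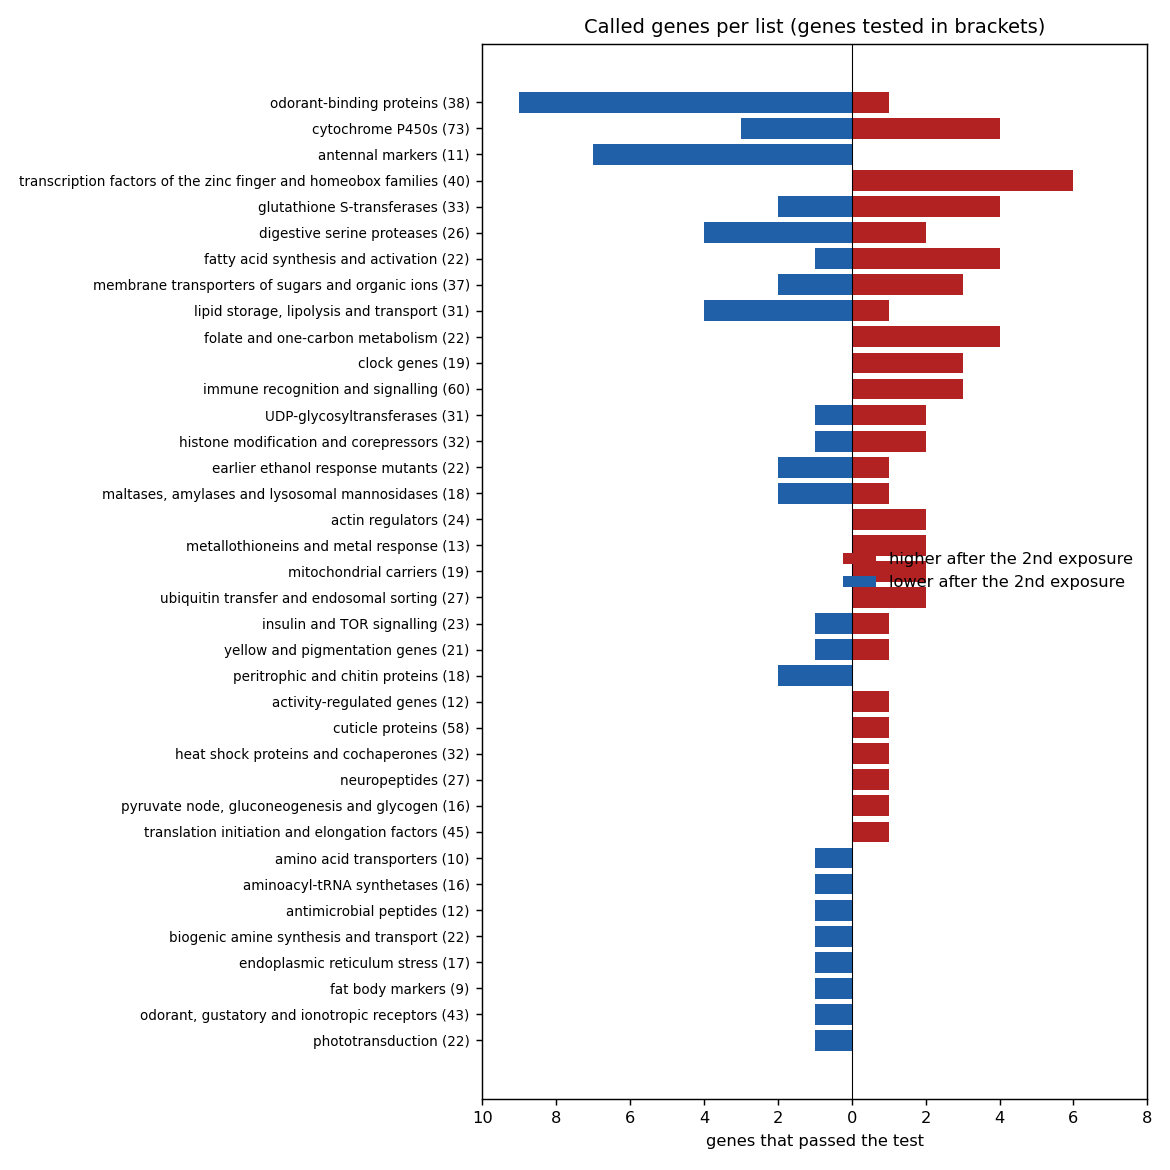
Number of genes that passed the test in each of the 37 lists with a called member, higher to the right and lower to the left, with the number tested in brackets. The odorant-binding proteins have the most falls (9) and the transcription factors the most rises (6).

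None of 34 cytosolic and none of 69 mitochondrial ribosomal proteins passed, with medians of -0.02 and -0.08, and 14 of the 69 mitochondrial ones had a value above 0. None of 31 genes of ribosome biogenesis, 33 of splicing and mRNA export, 41 of the proteasome and 24 of autophagy passed. Of 45 translation factors eIF2D rose (adjusted p = 0.0499) and of 16 aminoacyl-tRNA synthetases CysRS fell (adjusted p = 0.0474), calls that ended in 24 and 20 of 29 alternatives, the replicate block among them (adjusted p = 0.074 and 0.0559).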

How the data were processed

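RNA of 15 pools of males was read on 1-colour Affymetrix Drosophila arrays, 5 each of control, 1st exposure and 2nd exposure. The deposited values are MAS 5.0 Signal, a linear intensity per probe set that the authors scaled to a trimmed mean of 500 on each array, and no further normalization was applied. Of 18952 probe sets, 183 control probe sets were left out, and the test took the 13809 whose Signal averaged 20 or more across the 15 arrays. Of the probe sets kept, 13646 were paired with 1 gene in the platform table, 402 with several and 4721 with none, and these last were counted but not named. Log2 Signal, with no pseudocount, was fitted in limma 3.58.1 (R 4.3.3) over the 3 treatments, with Benjamini-Hochberg adjustment over all probe sets tested and calls at an adjusted p under 0.05. A gene was read by its tested probe set of the highest mean Signal. Python 3.11.15 drew the plots. The fit was tested on simulated data.

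Named genes are the 12 largest rises and 12 largest falls among called genes whose treatments do not overlap and whose higher mean is at least 100, and up to 4 called members of each list by adjusted p. Genes named outside that rule are said to be chosen after their values were seen, apart from further list members and neighbors along the chromosomes. Further called list members are Obp19d, Obp22a, Obp84a, lambdaTry, Ser8, FASN3, Acbp3, salm, Scr and MFS3. They are not among the 96 named calls counted. The members and lists were chosen with earlier results of these data known, and the egg shell list was corrected after its values were seen, to drop 2 centrosomal genes of like name. The methods describe independent replicates and draw the control, 1st and 2nd exposure pools of each from the same starting groups of flies. That the array numbers are those replicates is taken from the titles. Same-numbered control and 2nd exposure arrays showed no shared deviation (residual correlation -0.022 to 0.014, against -0.037 to 0.040 for other pairs of these treatments). Pairs with 1 array of the 1st exposure ranged from -0.073 to 0.098 where the numbers matched, and from -0.163 to 0.138 where they differed. The fit has no block, and the blocked value stands beside each named result whose call it ended. p-values measure the spread between these pools, and 5 arrays a treatment limit the precision. Alternatives were other normalizations, a pseudocount of 50, other Signal minimums, a replicate block, other variance models, fewer arrays and each array left out in turn. Leaving out 2nd exposure replicates 4 and 5 together, averaging control replicates 1 and 4, and equalising the medians of the tested probe sets only were chosen after seeing the data.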

Additional observations from a re-analysis of the deposited data

Results flagged for a closer look

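Of 224 groups of 5 arrays looked at, 2 treatments for each of 112 named genes, 19 had an array set apart. Its gap to the nearest of the others was over 0.71 of the group's whole range, both taken on log2 Signal. Chance alone marks about 1 in 20 groups, the gap is given as a share of the range, and no cause was tested. Among control arrays with a low one, MtnD was lowest on replicate 3 at 745 against 942 to 1004 (gap 0.786). GstE4 was lowest on replicate 3 at 158 against 348 to 445 (gap 0.762). GstD1 was lowest on replicate 1 at 9158 against 10043 to 10397 (gap 0.727). per was lowest on replicate 4 at 118 against 144 to 150.2 (gap 0.822). Peritrophin-15a was lowest on replicate 5 at 3247 against 3989 to 4292 (gap 0.738). Men was lowest on replicate 1 at 6138 against 6354 to 6421 (gap 0.768). hry was lowest on replicate 5 at 2764 against 3166 to 3281 (gap 0.792). dhd was lowest on replicate 5 at 8.2 against 62.1 to 83.8 (gap 0.871). Among control arrays with a high one, Nmdmc was highest on replicate 5 at 584 against 293 to 349.6 (gap 0.743). CG10505 was highest on replicate 1 at 111 against 76.1 to 81.1 (gap 0.832). Prat2 was highest on replicate 2 at 1986 against 1662 to 1740 (gap 0.743). Paics was highest on replicate 2 at 2836 against 2338 to 2439 (gap 0.78). l(2)efl was highest on replicate 5 at 11763 against 8936 to 9568 (gap 0.752). Oatp58Db was highest on replicate 3 at 757 against 628 to 653 (gap 0.788). Among arrays of the 2nd exposure, Cyp309a1 was lowest on replicate 2 at 403 against 516 to 559 (gap 0.755). Ppat-Dpck was highest on replicate 1 at 620.2 against 534 to 548 (gap 0.83). Vmat was lowest on replicate 3 at 238 against 252 to 258 (gap 0.715). Jhe was lowest on replicate 1 at 51.4 against 68.5 to 74.1 (gap 0.785). Yp3 was highest on replicate 5 at 1661 against 72.3 to 147 (gap 0.774).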

How the results depend on the processing

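The 501 probe sets called became 332 (219 higher) when only control and 2nd exposure arrays were fitted, and 254 (128 higher) without 2nd exposure replicates 4 and 5. Equalised array medians gave 254 falls in place of 167. Leaving out 1 array at a time gave 347 to 495 calls, 230 to 332 higher and 117 to 168 lower. With the replicate block 420 were called, 283 higher and 137 lower. The design pairs the pools of a replicate, and the block ended 9 of the named calls, each given beside its gene. Of 96 named calls, 58 held in all 29 settings, 34 were lost without 2nd exposure replicates 4 and 5, 12 without replicate 5, 11 without replicate 4, 9 with the replicate block, 7 with no filter and 4 with equalised medians. No named call changed sign. Of 3480 counts per list and setting, 282 moved by over 1.5 times. The causes were not tested. Probe sets at a mean Signal of 20 to 100 were called in 2.28% of cases, against 4.96% at 2000 and more.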

Other observations

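Called genes were placed by their order along the chromosomes. Of 195 placed genes that rose, 12 (6.15%) lay next to another that rose, and of 150 that fell, 18 (12%) lay next to another that fell. These adjoining genes formed 15 runs, each of 2 genes. Over all genes tested 1.83% rose and 1.39% fell, and the share that would adjoin at those rates was not worked out. Some pairs were relatives: the peritrophins Peritrophin-15b and Peritrophin-15a, the trypsins zetaTry and etaTry, the esterases Jhedup and Jhe and the acyl-CoA synthetases Acsx2 and Acsx3 fell, and the esterases alpha-Est10 and alpha-Est9 rose. Others bear unrelated names, as with Men and Ugt37A2 or Paics and pira, which rose. Probe sets of close relatives may read each other's transcripts, which was not tested. By chromosome arm, between 1.29% (3L) and 2.29% (3R) of tested genes rose on the 5 large arms, and between 1.01% (X) and 1.76% (2L) fell. Of 12 haemocyte markers none passed, and their median log2 fold change was -0.30.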
